A study of Mus musculus with 21 samples.

Results

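The effect of deleting Tardbp from oligodendrocytes was compared between mouse spinal cords taken at postnatal day 21 (P21) and at about day 60 (P60). The comparison used 14 of the 21 libraries of the study, namely 4 heterozygous (cHET) and 4 knockout (cKO) mice at P21 and 3 mice of each genotype at P60. Heterozygous mice were Cnp-Cre; Tardbp-fl/+ and knockout mice were Cnp-Cre; Tardbp-fl/fl, so all 14 carried the Cnp-Cre allele, which recombines in the oligodendrocyte lineage, and at least 1 floxed Tardbp allele. All mice were C57BL/6, each library came from its own mouse, and each was made from RNA of whole cord, which mixes all cell types. Which cells had lost Tardbp cannot be read from these values. P21 groups held 2 female and 2 male mice. The P60 mice were all male, with cHET mice 65, 63 and 60 days old and cKO mice 61, 61 and 64 days old. The library kit was Illumina TruSeq RNA Sample Prep at P21 and NEXTflex Rapid Directional RNA-Seq at P60, so age, kit and, in part, sex cannot be told apart in any difference between ages. Levels were therefore never compared across ages. For each gene the knockout effect was the mean log2(value + 0.5) in cKO minus that in cHET mice of the same age, and the age difference was the effect at P60 minus the effect at P21. Values are normalized scaled reads per base.

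TDP-43, the protein encoded by Tardbp, is an RNA-binding protein of the nucleus that controls splicing and RNA stability. Oligodendrocytes make the myelin of the central nervous system, and since cholesterol crosses the blood-brain barrier poorly, they synthesise the large amounts that myelin needs. Sterol regulatory element binding proteins (SREBPs) are transcription factors that are released from the endoplasmic reticulum when sterols are low, and they switch on the enzymes of cholesterol synthesis and genes of sterol uptake. Microglia, the resident macrophages of the cord, clear myelin debris and respond to interferons with a shared set of induced genes.

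Values summed to between 26908290 and 29206779 per library at P21 and to between 12833800 and 13798772 at P60. These are normalized sums, and the files do not give read numbers. Oligodendrocyte genes such as Mbp and Mobp were among the high values in every library. The median SD over mice on the log2 scale was 0.155 in P21 cHET, 0.179 in P21 cKO, 0.154 in P60 cHET and 0.147 in P60 cKO mice. Mitochondrial transcripts took 6.40% to 8.12% of the P21 values and 11.4% to 17.9% of the P60 values, where P60 cHET 3 at 16.2% lay among the knockouts, at 14.6% to 17.9%. P60 cHET 2 stood apart in genes of peripheral nerve myelin, with a mean of 7.34 on the log2 scale over the Schwann cell list against 5.64 and 5.17 in the other two.

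Tardbp itself was at 2068, 2236, 2030.2 and 2231 in the P21 cHET mice and at 1731, 1880.5, 1753 and 1639 in the P21 cKO mice. At P60 it was at 925, 932 and 906 in cHET and at 831, 794 and 783 in cKO mice. Every knockout cord lay below every heterozygous cord of its age, with effects of -0.29 ± 0.06 (SE; adjusted p = 0.00145) at P21 and -0.20 ± 0.06 (adjusted p = 0.0365) at P60, all by limma. The age difference was 0.09 ± 0.08 with an adjusted p of 0.746 in limma. Cnp, the oligodendrocyte enzyme gene whose locus drives the Cre, had an age difference of 0.19 ± 0.10 (adjusted p = 0.443, limma). Neither gene passed the test of the age difference, so the loss of whole-cord Tardbp RNA did not differ detectably between the ages.

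Across 18277 tested genes, 355 had a knockout effect that differed between the ages, which is 1.94% of them (limma-trend, Benjamini-Hochberg adjusted p under 0.05). Of these, 168 (0.919%) had the higher effect at P60 and 187 (1.02%) the lower. At an unadjusted p under 0.05 there were 2340 genes, or 12.8%. The changed genes mostly had the larger effect in the older cord. Genes were classed by the age at which the effect was larger in size and by its sign there. The larger effect was a fall at P60 in 167 genes and a rise at P60 in 152, and it was a rise at P21 in 20 and a fall at P21 in 16. The sign at the other age was opposite in 31 of the 167, 41 of the 152, 16 of the 20 and 13 of the 16. The effect was thus larger in size at P60 in 319 of the 355 genes (89.9%), beside 58% of all tested genes irrespective of p. Signs were opposite in 101 of the 355 in all, but only 14 passed the test at each age with opposite signs. For all 355 genes, the effects of the 3 P60 knockout mice and of the 4 P21 knockout mice did not overlap, against 23% of all tested genes, and nothing is read from this because the same values enter the test.

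The single-age effects gave the frame for these differences. At P21, 3638 genes (19.9%) differed between cKO and cHET mice, 2108 higher (11.5%) and 1530 lower (8.37%). At P60, 4102 genes (22.4%) differed, 2334 higher (12.8%) and 1768 lower (9.67%). Direction was shared by 2346 genes called at both ages, which is 64.5% of the P21 calls and 57.2% of the P60 calls. Falls of at least 1 on the log2 scale were called for 107 genes at P21 and for 323 at P60, whereas rises of that size were called for 850 and 928. The 323 genes chosen at P60 had a median effect of -1.50 there and of -0.63 at P21. The 107 genes chosen at P21 had a median of -1.40 there and of -1.54 at P60. The 850 strong rises at P21 had a median of 1.77 there and 1.59 at P60, and the 928 at P60 had 1.69 there and 1.39 at P21. Choosing genes at one age makes that age's median larger, which is why each set is given from both sides. Of the 323 and the 928 genes chosen at P60, 100 and 102 had a called age difference. Leaving out any single library kept the count of such falls between 89 and 126 at P21 and between 285 and 340 at P60.

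**Figure D1:**
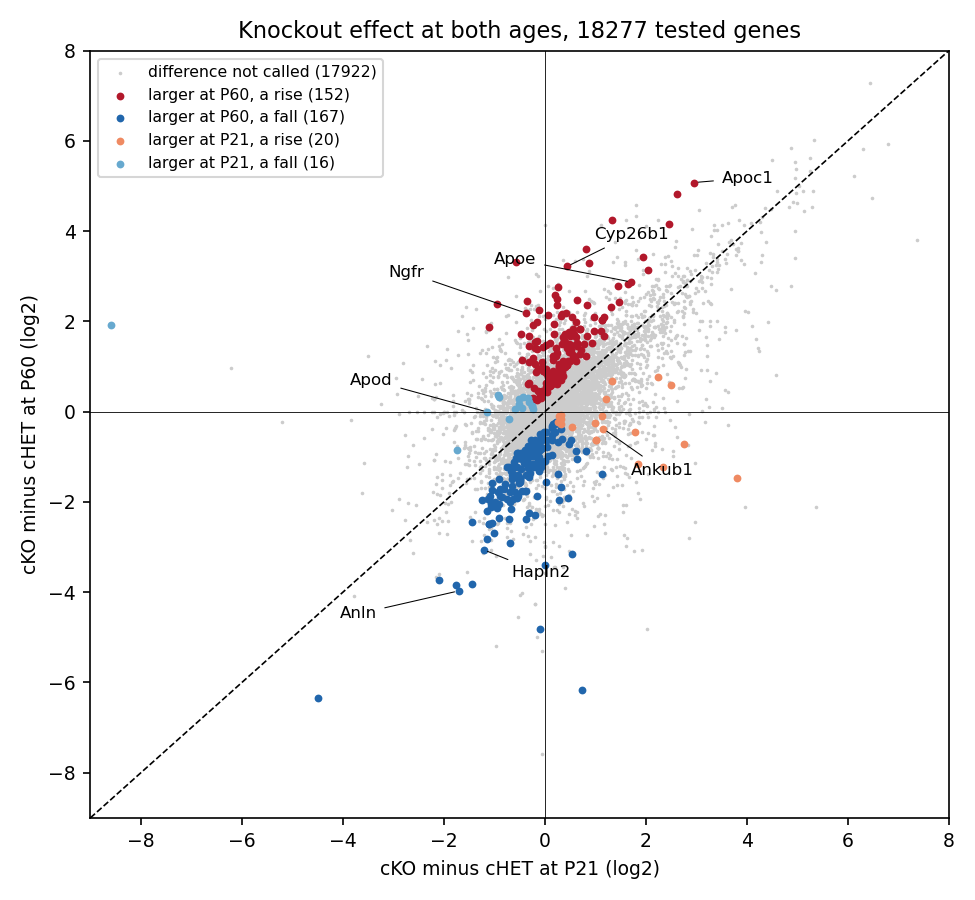
Knockout effect at P21 (x axis) against that at P60 (y axis), both as log2 differences between cKO and cHET means, for all 18277 tested genes. The dashed line marks equal effects; the 355 coloured genes passed the test of the difference, and most of them lie farther from 0 on the P60 axis than on the P21 axis.

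Cholesterol synthesis genes fell at both ages, and a majority fell further at P60. All 20 listed enzymes, from acetoacetyl-CoA thiolase (Acat2) to the sterol reductase Dhcr7, fell at both ages, beside 8.37% of all tested genes at P21 and 9.67% at P60. In each of the 20, all cKO libraries lay below all cHET libraries at each age, beside 22.3% of all tested genes that did not overlap in either direction at P21 and 37.4% at P60. The median effect moved from -0.82 at P21 to -1.62 at P60, and 11 of the 20 passed the test of the age difference in the lower direction, beside 1.02% of all tested genes. The median age difference was -0.68, beside 0.01 over all tested genes, and 19 of 20 were negative. The knockout mice did not overlap between ages for 15 enzymes, all with P60 below P21, beside 11.1% of all genes. Each knockout mouse gave a similar list median, between -0.94 and -0.69 at P21 and between -1.69 and -1.59 at P60. Left-out libraries moved the count of 11 to at most 12.

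**Figure D2:**
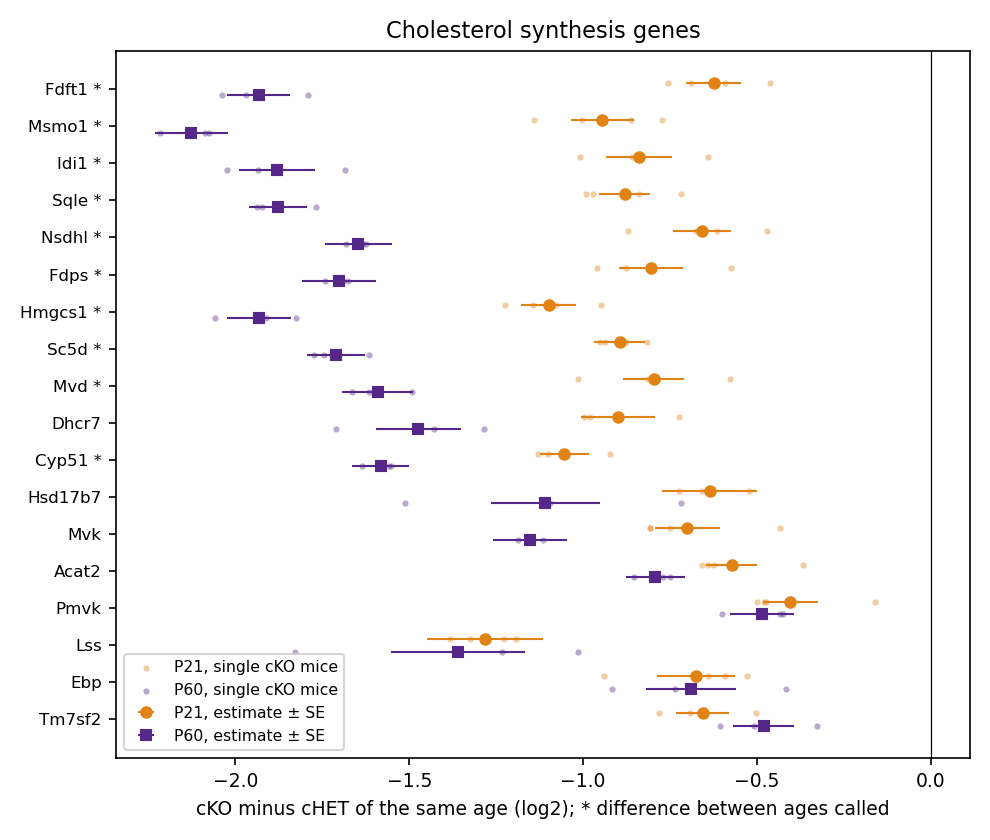
Knockout effect (x axis, log2) for 18 of the 20 cholesterol synthesis genes, ordered by age difference, with fitted estimate ± SE for each age and small points for single cKO mice, each against the cHET mean of its age. The P60 estimate lies left of the P21 estimate for every gene plotted except Tm7sf2.

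Squalene synthase (Fdft1), the first committed step toward sterols, was at 5314, 5129, 4476 and 4465 in P21 cHET mice and 2863, 2996, 3204 and 3504 in P21 cKO mice. In P60 cHET mice it was at 1667, 1639 and 1539 and in P60 cKO mice at 393, 412 and 466. No cKO mouse overlapped a cHET mouse of its age, and the gap was wider at P60. The effect was -0.63 ± 0.08 (SE) at P21 and -1.93 ± 0.09 at P60, an age difference of -1.31 ± 0.12 (adjusted p = 2.8e-05, limma). The Fdft1 values per library do not average to the means in the authors' deposited tables, but its effects there were -0.63 and -1.87. Squalene epoxidase (Sqle), which acts next and limits flux, was at 11910.2, 11480.5, 9946 and 11045 in P21 cHET mice and 5644, 5565, 6186 and 6725 in P21 cKO mice. Its P60 values were 2519.8, 2680.4 and 2434 in cHET mice against 669.9, 663 and 746 in cKO mice. The knockouts were thus low at both ages and lower relative to cHET at P60, where the effect was -1.88 ± 0.08 against -0.88 ± 0.07 at P21. The age difference of Sqle was -1.0 ± 0.11 (adjusted p = 0.000169, limma).

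The sterol methyl oxidase Msmo1, which removes methyl groups from the sterol ring, was at 9958, 8935, 7783 and 8896 in P21 cHET and 4017, 4419, 4869 and 5179 in P21 cKO mice. At P60 the cHET mice had 2465, 2224 and 1993 and the cKO mice 477, 526 and 521. Msmo1 had the deepest P60 effect of the list, -2.13 ± 0.10, against -0.95 ± 0.09 at P21, and an age difference of -1.18 ± 0.14 (adjusted p = 0.000237, limma). Further members with adjusted p under the threshold had age differences from -1.04 (Idi1, isopentenyl diphosphate isomerase) to -0.82 (Sc5d, sterol desaturase), among them Nsdhl, Fdps and Hmgcs1. Mvd and Cyp51 were also called. Lss, which closes the sterol ring, had nearly equal effects, -1.28 at P21 and -1.36 at P60, though its SE of the difference was wide (-0.08 ± 0.25, adjusted p = 0.95). The enzymes thus did not share one size of age difference, and Tm7sf2 alone had a positive one (0.18 ± 0.12, adjusted p = 0.609, limma). Its values also differ between the kinds of file, and the authors' deposited tables give Tm7sf2 effects of -1.02 at P21 and -1.10 at P60. The same mismatch holds for Hmgcs1, at -1.15 and -1.91 in the authors' deposited tables against -1.10 and -1.93 here.

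Promoters of these genes are shown because the list moved together at both ages. RefSeq sequences (GRCm38.p6), 250 bases upstream of a start, were found for 15 of the 20 genes. The box bound by NF-Y, a factor known to act beside SREBPs, was searched as CCAAT on both strands and occurred in 14 of the 15 (93.3%), and in 39.8% of the 12824 tested genes with a promoter in the table. The sterol regulatory element, searched as TCACNCCAC on both strands, occurred in 1 of the 15, Hmgcs1, and in 1.26% of tested genes. These motifs can share at most 1 end base. Upstream sequences of 3 members with a called age difference follow, with every CCAAT, or its reverse complement ATTGG, in capitals. They lie at chr8:64733579-64733828, minus strand for Msmo1, chr13:8885356-8885605, plus strand for Idi1 and chr13:119690101-119690350, plus strand for Hmgcs1.
Msmo1: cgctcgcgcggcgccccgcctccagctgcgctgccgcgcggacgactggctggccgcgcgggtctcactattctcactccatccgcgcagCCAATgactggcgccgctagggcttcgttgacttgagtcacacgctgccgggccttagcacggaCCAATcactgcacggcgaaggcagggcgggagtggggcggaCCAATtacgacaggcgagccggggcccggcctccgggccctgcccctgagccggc
Idi1: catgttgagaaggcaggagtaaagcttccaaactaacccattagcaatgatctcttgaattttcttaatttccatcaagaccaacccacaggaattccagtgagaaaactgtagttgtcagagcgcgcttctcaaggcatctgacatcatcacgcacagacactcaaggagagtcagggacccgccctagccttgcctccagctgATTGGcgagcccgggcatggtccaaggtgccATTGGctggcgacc
Hmgcs1: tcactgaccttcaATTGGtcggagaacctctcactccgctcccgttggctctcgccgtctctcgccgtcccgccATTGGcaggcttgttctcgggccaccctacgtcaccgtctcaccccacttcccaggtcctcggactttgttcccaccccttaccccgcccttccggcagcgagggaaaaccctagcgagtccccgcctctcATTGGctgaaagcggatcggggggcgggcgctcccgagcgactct
Msmo1 and Hmgcs1 each hold 3 matches and Idi1 holds 2. These are matches of letters, not measured binding sites, and the share of CCAAT among all 355 genes with an age difference was 35.4% of the 268 with a promoter in the table.

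Genes of SREBP control and sterol uptake did not all move in one direction. Insig1, which holds SREBPs in the endoplasmic reticulum and is itself an SREBP target, was at 5445, 5813, 5133 and 4811 in P21 cHET mice and 3460.4, 3590.3, 3168 and 4235 in P21 cKO mice. It was at 1784, 1838 and 1733 in P60 cHET mice and 484, 437 and 493 in P60 cKO mice. The Insig1 effects were -0.56 ± 0.08 at P21 and -1.92 ± 0.09 at P60 (difference -1.36 ± 0.12, adjusted p = 2.8e-05, limma). Stard4, a carrier that moves cholesterol between membranes, had -0.69 ± 0.10 and -2.01 ± 0.12 (difference -1.31 ± 0.16, adjusted p = 0.000292, limma). Its P60 cKO values of 43.8, 37.6 and 42.9 stood against 168, 159.9 and 175 in cHET mice. Both genes fell further at P60. Srebf1, which encodes the SREBP best known for fatty acid synthesis, went the other way, with 0.36 ± 0.10 at P21 and 1.12 ± 0.11 at P60 (difference 0.76 ± 0.15, adjusted p = 0.0114, limma). In all, 3 of 13 tested members were lower and 1 was higher, beside 1.02% and 0.919% of all tested genes, with a list median of -0.08. Scap, Mbtps1 and Mbtps2, which carry and cleave SREBPs, had age differences between -0.18 and 0.02, none called. Srebf2, the sterol SREBP, has no per-library values here. The authors' deposited table gives it a log2 effect of -0.38 at P21 and -1.18 at P60, with no test of that difference.

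Among 15 genes of fatty acid synthesis, 9 fell at P21 and 10 at P60 (backgrounds 8.37% and 9.67%), and the median was -0.36 and -0.48. None passed the test of the age difference, beside 1.94% of all tested genes, and 4 had an unadjusted p under 0.05, beside 12.8%. No member of this list passed in any single left-out-library fit. Among genes of myelin sphingolipids, Fa2h, the hydroxylase that makes the hydroxylated lipids of myelin, fell more at P60, -1.50 against -0.91 (difference -0.59 ± 0.12, adjusted p = 0.0155, limma). It was 1 of 11 (background 1.94%), and no member was called without P60 cHET 2 or P60 cKO 1. Ugt8a, which adds galactose to ceramide, had -1.16 and -0.87 (difference adjusted p = 0.573).

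Genes of sterol export and liver X receptor targets had higher effects at P60 in 5 of 15 cases (background 0.919%) and a lower effect in none. Apoe, the main lipid carrier of the central nervous system, was at 47061, 44554, 48548 and 54666 in P21 cHET mice and at 155991, 173382, 161703 and 147844 in P21 cKO mice. P60 cHET mice had 19826, 20781 and 19424, and P60 cKO mice 162086, 145963 and 133221. The groups of an age did not overlap, and the effect was 1.72 ± 0.08 at P21 and 2.87 ± 0.09 at P60 (difference 1.16 ± 0.12, adjusted p = 8.2e-05, limma). Under quantile normalization, which pins the highest values of each library, the Apoe difference was 0.07 with an adjusted p of 0.92, so this call depends on the scaling. Apoc1, its gene neighbour and also an apolipoprotein, was at 120.3, 139, 128 and 117 and 1128, 1192, 924 and 746 in P21 cHET and cKO mice and at 16.2, 20.5 and 38.2 and 1002, 862 and 606 at P60. Its age difference was 2.12 ± 0.34 (adjusted p = 0.00338, limma), and it passed under every alternative run. Abca1, the pump that loads cholesterol onto apolipoproteins, had effects of 1.65 and 2.84 (difference 1.19 ± 0.21, adjusted p = 0.00655), and Abcg1 0.24 and 0.63 (difference 0.39 ± 0.08, adjusted p = 0.0182), both by limma. The fifth member, Apod, followed another course. It was at 18404, 18166, 17839 and 18005 in P21 cHET and 7257, 8124, 9606 and 8132 in P21 cKO mice, with no overlap. The P60 values were 7901, 7831 and 6933 in heterozygous and 6787, 7408 and 8420.0 in knockout cords, which overlapped. Apod thus fell by 1.14 at P21 and had an effect of -0.01 ± 0.09 at P60 (difference 1.13 ± 0.12, adjusted p = 0.000162, limma).

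Lipid storage genes gave 2 differences in opposite directions among 12, beside 1.94% of all tested genes with a difference. Dgat2, which makes triglycerides, was at 94, 90.6 and 98.5 in P60 cHET and 172, 192 and 182 in P60 cKO mice. At P21 the ranges overlapped, at 575, 559.9, 504 and 567 in cHET mice against 478, 508, 457 and 578 in cKO mice. Its effect was -0.13 at P21 and 0.94 at P60 (difference 1.07 ± 0.13, adjusted p = 0.000353, limma). Lipe, a lipase of stored fat, had -0.30 and -0.79 (difference -0.49 ± 0.10, adjusted p = 0.0117, limma), and its call was lost when only male mice were used (adjusted p = 0.069).

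Myelin and mature oligodendrocyte genes separated into members that were lost further and members that rose. Of 27, 8 had a lower and 5 a higher effect at P60, beside 1.02% and 0.919% of all tested genes, and the median effect went from -0.34 to -0.66. In bulk cord, fewer oligodendrocytes and less RNA per oligodendrocyte cannot be told apart. Hapln2, which links the matrix at nodes of Ranvier, was at 9271, 8942, 8605 and 8095 in P21 cHET and 3885, 3498, 3772 and 3907 in P21 cKO mice. In the older cords, heterozygotes had 1597, 1659 and 1346 and knockouts 168, 168 and 217. Its effect went from -1.21 ± 0.09 to -3.06 ± 0.10 (difference -1.85 ± 0.13, adjusted p = 3.5e-06, limma). Anln, an actin-binding protein that in myelin supports septin filaments, was at 869.7, 985, 877 and 774 and 259.8, 251, 259 and 301 at P21 and at 448, 602 and 421 and 27.8, 29.6 and 34.1 at P60, in cHET and cKO mice respectively. The Anln difference was -2.26 ± 0.18 (adjusted p = 7.2e-06, limma). Neither gene's knockout values approached the heterozygous values at any age.

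Gjb1, the gap junction protein connexin 32, had effects of -1.45 and -2.43 (difference -0.99 ± 0.16, adjusted p = 0.00295, limma). Mag, a myelin adhesion protein facing the axon, went from -0.21 to -0.91 (difference -0.69 ± 0.11, adjusted p = 0.00338, limma). Mobp, an abundant protein of compact myelin, went from -0.08 to -0.64 (difference -0.57 ± 0.11, adjusted p = 0.0146, limma). Mag and Mobp were therefore not called at P21 but were at P60. Myrf, the transcription factor that sustains myelin gene expression, was 1 of the 14 genes called in opposite directions, at 0.20 (adjusted p = 0.0483) and -0.44 (adjusted p = 0.000486), with a difference of -0.64 ± 0.10 (adjusted p = 0.00275, limma). Ppp1r14a and Plekhb1 also fell further. Mbp, an abundant transcript of compact myelin, did not pass, at -0.42 and -0.66 (difference -0.23 ± 0.15, adjusted p = 0.569, limma). Klk6, a protease of mature oligodendrocytes, was already at -3.78 at P21 and was at -4.09 at P60.

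**Figure D3:**
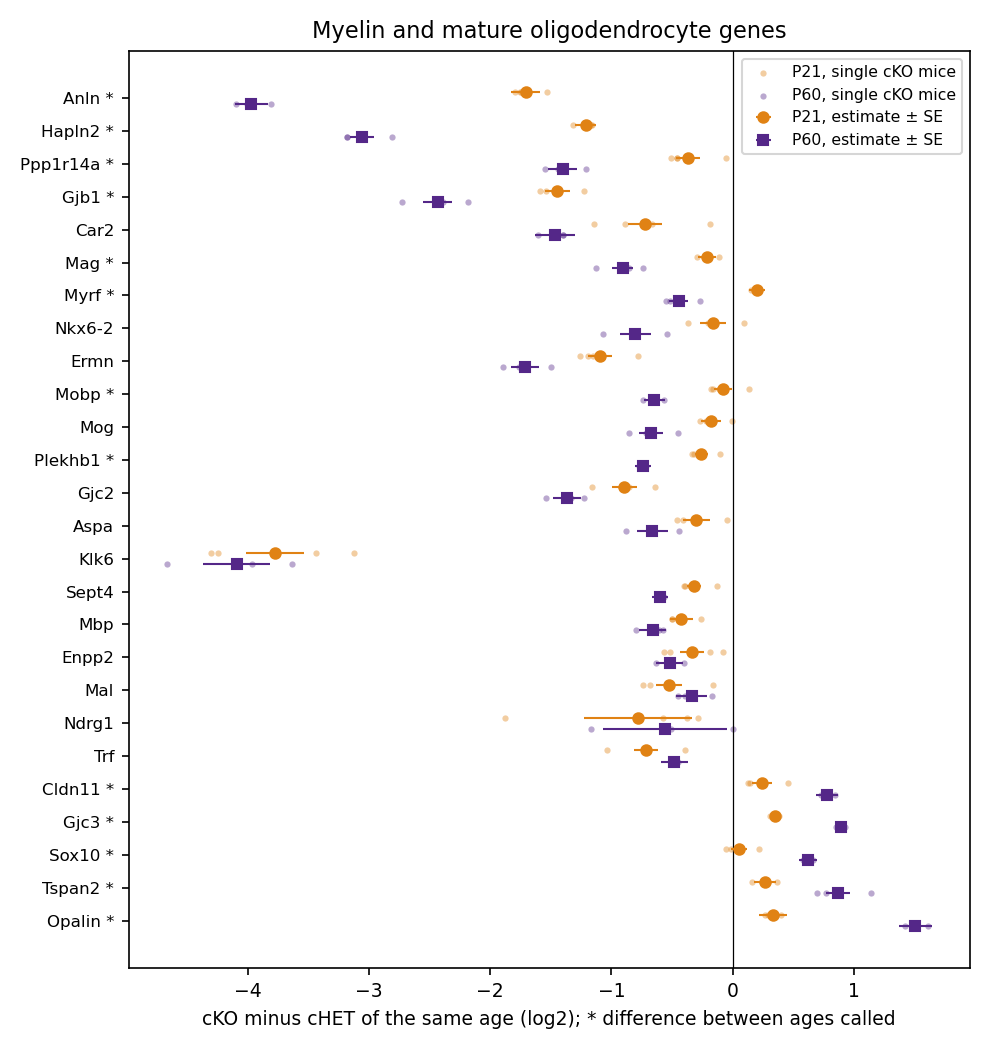
Knockout effect (x axis, log2) at each age for 26 of the 27 myelin and mature oligodendrocyte genes, ordered by age difference, with estimate ± SE and single cKO mice as small points. Stars mark the 13 genes with a called age difference: 8 lie farther left at P60 and 5 farther right, among them Opalin at 1.51 against 0.33.

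The 5 members that rose more at P60 were Opalin, Gjc3, Sox10, Tspan2 and Cldn11. Opalin, a membrane protein of oligodendrocytes, was at 3395, 3534, 3493 and 4438 in P21 cHET and 4737, 4436, 4534 and 4879 in P21 cKO mice. The P21 groups overlapped. At day 60 the heterozygous mice were at 709.8, 643 and 998 and the knockout mice at 2165, 2065 and 2351, which did not. Its age difference was 1.18 ± 0.17 (adjusted p = 0.00174, limma). Gjc3, connexin 29, had small errors, with 0.35 ± 0.04 and 0.89 ± 0.05 (difference 0.55 ± 0.06, adjusted p = 0.000207, limma). Sox10, the transcription factor expressed throughout the lineage, had an effect of 0.06 at P21 and 0.62 at P60 (difference 0.56 ± 0.10, adjusted p = 0.00581, limma). Mature oligodendrocyte genes did not, then, move as one set in either direction.

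Effects on genes of earlier stages of the lineage were mostly larger in size at P60. This held for 11 of 11 newly formed oligodendrocyte genes and 14 of 16 precursor genes, beside 58% of all tested genes. In the newly formed oligodendrocyte list 2 of 11 were higher and 1 lower, beside 0.919% and 1.02% of all tested genes, and the median effect was 0.54 at P21 and 0.77 at P60. Gpr17, a receptor of cells about to myelinate, was at 15733, 12493, 12228 and 15411 in P21 cHET and 18837, 23706, 26342 and 17886 in P21 cKO mice. P60 cHET mice had 1474, 1417 and 1775, and P60 cKO mice 6197, 6414 and 5791. The fitted effects were 0.63 ± 0.12 and 1.98 ± 0.14 (difference 1.36 ± 0.19, adjusted p = 0.000843, limma). Rras2, a small GTPase, followed it with 0.55 and 1.83 (difference 1.28 ± 0.18, adjusted p = 0.00134, limma). Bcas1, which marks actively myelinating cells, went the opposite way. It was at 7925, 7672 and 7354 in P60 cHET and 3832, 3986 and 4181 in P60 cKO mice and had effects of -0.18 and -0.94 (difference -0.75 ± 0.09, adjusted p = 0.000353, limma). Among precursor genes, 2 of 16 were higher and none lower, with a median effect of 0.40 at P21 and 0.69 at P60. Those were Neu4, a sialidase (0.40 and 1.0; difference 0.61 ± 0.11, adjusted p = 0.00604, limma), and Lhfpl3 (0.28 and 0.98; difference 0.70 ± 0.13, adjusted p = 0.00662, limma). The Neu4 call was lost with only male mice and with Cre-free controls in place of cHET mice, which at P60 were all female and 74 days old. Pdgfra, the receptor that defines precursors, had 0.32 and 0.47, and its difference did not pass (adjusted p = 0.849, limma). Proliferation genes had no called difference among 14, with 8 higher in cKO mice at each age (backgrounds 11.5% at P21 and 12.8% at P60).

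Among genes whose larger effect was a rise at P60, the biggest differences belonged to genes outside these lists. Ngfr, the p75 neurotrophin receptor, was at 102, 96.7, 95.4 and 119 in P21 cHET and 76, 77.6, 83.3 and 81.9 in P21 cKO mice. The P60 values were 76.6, 99.3 and 90.5 in heterozygous and 353, 460.2 and 402 in knockout cords. It was lower in every knockout than in every heterozygote at P21 (-0.37 ± 0.12, adjusted p = 0.0445) and higher in every one at P60 (2.18 ± 0.14, adjusted p = 2.0e-08), a difference of 2.55 ± 0.18 (adjusted p = 3.5e-06, limma). Ngfr is therefore among the 14 genes called in opposite directions. Cyp26b1, which degrades retinoic acid, was at 206, 205, 147 and 159 and 208, 279.5, 241 and 239.6 at P21 and at 51.5, 59.3 and 70.2 and 607, 543 and 536 at P60, in cHET and cKO mice. Its difference was 2.78 ± 0.21 (adjusted p = 3.5e-06, limma). Piezo2, a mechanically gated channel, had -0.36 and 2.45 (difference 2.82 ± 0.38, adjusted p = 0.00069, limma), with P60 cKO values of 530.3, 628 and 458 against 92.3, 106 and 93.2. These 3 genes passed under every alternative run. Slamf7, an immune receptor, had 0.81 and 3.61 (difference 2.80 ± 0.55, adjusted p = 0.0126), but P60 cHET values of only 1.74, 1.26 and 3.42. Col20a1, a collagen (2.92 ± 0.64, adjusted p = 0.0267), and Selenov, a selenoprotein (2.98 ± 0.72, adjusted p = 0.0463), lost their calls in 9 and 19 of 28 alternatives. The Col20a1 values differ between the kinds of file too, with effects of 1.59 and 5.03 in the authors' deposited tables against 1.34 and 4.26 here. For Slamf7 and Selenov the low P60 cHET values, and for Col20a1 the spread from 1.92 to 17 in those mice, limit the size of the fold.

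Genes whose larger effect was a fall at P60 included Pdlim1, Casq1, Naa30, Myoc and Slc9b2 beside Anln. Myoc, the gene of the secreted protein myocilin, was at 3653, 3678, 3586 and 3742 in P21 cHET and 2219, 2050.4, 2059 and 2794 in P21 cKO mice. In the older cords, heterozygotes had 837, 1061 and 1106 and knockouts 151, 97.6 and 153. The effect deepened from -0.70 ± 0.14 to -2.92 ± 0.16 (difference -2.22 ± 0.21, adjusted p = 3.4e-05, limma). Casq1, a calcium store protein best known from skeletal muscle, was not called at P21 (0.45 ± 0.20) and fell by 1.90 at P60 (difference -2.36 ± 0.31, adjusted p = 0.000555, limma). Its P60 cKO values were 18, 19.7 and 20.5 against 86.4, 84.2 and 55.5 in cHET mice. Slc9b2, a sodium/proton exchanger, had -0.19 and -2.28 (difference -2.08 ± 0.31, adjusted p = 0.00169, limma). Myoc, Casq1 and Slc9b2 passed under every alternative that tested them. Pdlim1 (-2.38 ± 0.57, adjusted p = 0.0426, limma) and Naa30 (-2.25 ± 0.51, adjusted p = 0.0328, limma) lost their calls in 14 of 29 and 12 of 28 alternatives. The Naa30 values per library do not average to the means in the authors' deposited tables, which give it effects of 0.04 (q = 0.802) at P21 and -0.36 (q = 0.221) at P60, against 0.29 and -1.96 here.

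Genes whose larger effect was a rise at P21 were few, and several were near the threshold. Ankub1 was at 187, 169, 233 and 124 in P21 cHET and 333, 342, 426 and 473 in P21 cKO mice. At day 60 the heterozygous mice were at 198, 203 and 180.0 and the knockout mice at 168, 126 and 155. It rose at P21 (1.16 ± 0.17) and had -0.38 ± 0.20 at P60 (difference -1.54 ± 0.26, adjusted p = 0.00435, limma), under every alternative. Ccl9, a chemokine of myeloid cells, had 1.79 and -0.46 (difference -2.25 ± 0.51, adjusted p = 0.0342, limma), but lost its call in 13 of 29 alternatives. The differences of Acp5 (-3.47), an acid phosphatase of osteoclasts and macrophages, and of Dpp4 (-3.01), a membrane peptidase, were large but rested on P60 values of at most 11.3 in every mouse. Both, with Dnah14 (-1.91) and Arrdc2 (-1.64), were lost in 13 to 20 alternatives each. Arrdc2 shares all its values with a second gene entry, so the pair counts as 2 of the 355. In all, 8 of the 355 share all their values with another tested gene. All these had adjusted p between 0.0342 and 0.0476 (limma) apart from Ankub1.

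The 16 genes whose larger effect was a fall at P21 included Nid1, Col6a2, Mmp17, Gpd1 and Foxp2 beside Apod. Nid1, a basement membrane protein, was at 4416, 4675, 3675 and 3931 in P21 cHET and 1333, 1319.9, 1127 and 1237 in P21 cKO mice. P60 cHET mice had 911, 1176 and 1139, and P60 cKO mice 615, 611 and 556. It fell at both ages, -1.73 ± 0.09 and -0.85 ± 0.11, and less at P60 (difference 0.88 ± 0.14, adjusted p = 0.00308, limma). Col6a2, a collagen VI chain, was lower in every P21 cKO mouse (-0.92) and had an effect of 0.37 at P60 (difference 1.29 ± 0.22, adjusted p = 0.00439, limma). Mmp17, a membrane-anchored metalloprotease, had -0.51 and 0.28 (difference 0.79 ± 0.15, adjusted p = 0.0106). Gpd1, a glycerol phosphate dehydrogenase of oligodendrocytes, had -0.44 and 0.32 (difference 0.76 ± 0.15, adjusted p = 0.0126), and Foxp2, a transcription factor, -0.90 and 0.33 (difference 1.24 ± 0.25, adjusted p = 0.0139), all by limma. Apart from Nid1, none of these passed at P60, so a fall seen in the younger cord was not detected in the older one. For Col6a2, Mmp17, Gpd1 and Foxp2, every P60 cKO mouse in fact lay above every P60 cHET mouse. Over all tested genes, 37.4% did not overlap at P60 in either direction. With the Cre-free controls in place of cHET mice, which changes sex and age at P60 as well as genotype, the Foxp2 difference was 0.11 (adjusted p = 0.89), and the Foxp2 and Col6a2 calls were also lost with only male mice.

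Genes of activated microglia were raised at both ages. Of 25 disease-associated microglia genes, 24 rose at P21 and 23 at P60 (backgrounds 11.5% and 12.8%), with medians of 3.18 and 2.67. The age test was passed by 1 of the 25, beside 1.94% of all tested genes, and 8 had an unadjusted p under 0.05, beside 12.8%. The gene that passed was Cd9, a tetraspanin also made by oligodendrocyte precursors and other glia (1.13 and 2.02; difference 0.89 ± 0.13, adjusted p = 0.00189, limma). Trem2, the lipid receptor of microglia, had 3.28 and 3.52 (difference 0.24 ± 0.21, adjusted p = 0.726, limma), and Gpnmb 5.33 and 6.03 (difference 0.71 ± 0.50, adjusted p = 0.637). The SEs leave room for a change in either direction. Of 18 homeostatic microglia genes, 14 rose and 2 fell at P21 and 12 rose and 5 fell at P60, with medians of 1.62 and 1.5. Over all tested genes, 8.37% fell at P21 and 9.67% at P60. The age difference was lower for 2 of them, beside 1.02% of all tested genes, and higher for none. Siglech was at 376, 329, 359 and 295 in P21 cHET and 411, 632, 574 and 489.6 in P21 cKO mice, every knockout above every heterozygote. The P60 values were 262, 232 and 205 in heterozygous and 129.5, 142 and 111 in knockout cords, every knockout below. Siglech, a receptor of resident microglia, was another of the 14 genes called in opposite directions (0.62 ± 0.13 and -0.87 ± 0.15; difference -1.49 ± 0.20, adjusted p = 0.000912, limma). Tmem119, a surface marker of resident microglia, had -0.39 and -1.76 (difference -1.37 ± 0.30, adjusted p = 0.0271), a call lost in 7 of 29 alternatives. P2ry12, the purinergic receptor that guides their processes, fell at both ages (-0.43 and -1.15), with a difference that did not pass (adjusted p = 0.0835, limma). The pan-microglial receptor Csf1r (1.80 and 1.41) rose at both ages.

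Within antigen presentation, 1 of 15 genes differed, beside 1.94% of all tested genes. Cd74, the invariant chain of MHC class II, was at 54.8, 32.9, 72.7 and 71.2 in P21 cHET and 298, 395, 334 and 219.7 in P21 cKO mice. In the older cords, heterozygotes had 32.6, 41.6 and 34.9 and knockouts 718, 637 and 604. Its effect was 2.45 at P21 and 4.15 at P60 (difference 1.7 ± 0.34, adjusted p = 0.0156, limma), and the list had no member called in this direction with only male mice or without P60 cKO 1. The class II chain H2-Aa had 1.42 and 3.43 (adjusted p of the difference = 0.0546). Class I members had smaller effects at P60 without passing, such as H2-K1 at 1.73 and 1.38 (adjusted p = 0.578, limma). Of 12 leukocyte genes listed for cells from outside the cord, 8 were tested and none was called at either age. Over all tested genes, 19.9% were called at P21 and 22.4% at P60. The 8 lay at low values, with list means per library of 1.87 to 3.67 on the log2 scale. Their count therefore cannot tell whether such cells were present.

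The interferon response list had the median age difference farthest from 0 of all lists and no single called gene. Its 26 members had a median effect of 1.48 at P21 and 0.14 at P60, 22 rose at P21 and 3 at P60 (backgrounds 11.5% and 12.8%). All 26 age differences were negative, with a median of -1.22 beside 0.01 over all tested genes, yet none passed after adjustment, and 16 had an unadjusted p under 0.05. P60 knockout mice lay below all P21 knockout mice for 20 of the 26, beside 11.1% of all genes. The list mean was higher in both male than in both female P21 cKO mice, and 1 library stood apart at P60. Among P21 cHET mice the males, at 6.47 and 7.29, lay on either side of the females. These groups hold too few mice of each sex to tell whether sex matters. The male P21 cKO mice (2 and 3) had list means of 9.0 and 9.10 on the log2 scale and the female ones (1 and 4) 7.77 and 7.84. Among cHET mice, P21 cHET 3 and P60 cHET 3 were the highest of their groups, at 7.29 (others 6.47 to 6.67) and 6.72 (others 5.80 and 5.97). P60 cKO mice were at 6.63, 6.55 and 6.43, and so overlapped P60 cHET 3. With only male mice, 6 of the 26 passed in the lower direction, and 13 did when P60 cHET 3 was also left out, an alternative chosen after seeing the data. The median age difference was then -1.86 and -1.50. Without P60 cHET 3 alone it was -0.93, with none called. The part of sex, of library preparation and of that library in the result was not tested further.

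**Figure D4:**
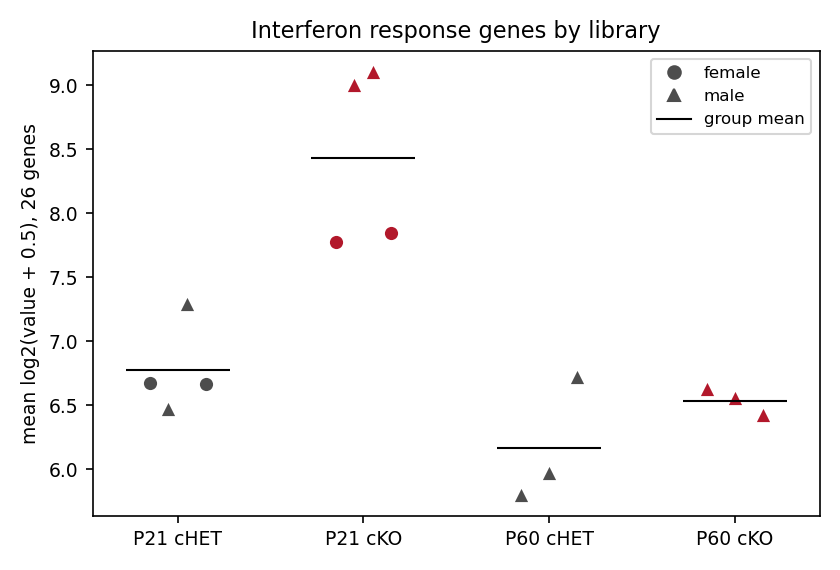
Mean log2(value + 0.5) over the 26 interferon response genes (y axis) in each of the 14 libraries by group (x axis), circles for female and triangles for male mice, with group means as lines. P21 cKO mice split into females near 7.8 and males at 9.0 and 9.10, and P60 cHET 3, at 6.72, lies above all P60 cKO mice; levels are not comparable across ages.

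Single members show the same layout. Ifit1, an RNA-binding antiviral protein, was at 77.8, 86.9, 148 and 113 in P21 cHET and 176, 491, 522 and 152 in P21 cKO mice. At day 60 the heterozygous mice were at 77.9, 122 and 285 and the knockout mice at 134, 98.4 and 100.3. Every P21 cKO mouse was above every P21 cHET mouse, and the P60 groups overlapped, with P60 cHET 3 the highest (difference -1.82 ± 0.64, adjusted p = 0.211, limma). Isg15, a ubiquitin-like protein, was at 112, 353, 319.6 and 113 in P21 cKO mice, where the males were again the 2 highest, and at 77.1, 61, 79.9 and 115 in P21 cHET mice. Its age difference was -1.14 ± 0.54 (adjusted p = 0.4, limma). The chemokine Cxcl10, also induced by interferon, had 3.12 and 0.01 (difference -3.11 ± 0.84, adjusted p = 0.0791, limma), and it was at 105 in P60 cHET 3 against 12.4 and 14.4 in the other P60 cHET mice.
The interferon-stimulated response element, searched as GAAA, any 2 bases and GAAA again on both strands, occurred in the 250 bases upstream of 9 of the 18 listed genes found in the RefSeq table (50%) and of 3.33% of tested genes. Ifit1 (chr19:34640639-34640888, plus strand) and Isg15 (chr4:156200819-156201068, minus strand) are shown with matches in capitals, overlapping ones joined, because their values are given above.
Ifit1: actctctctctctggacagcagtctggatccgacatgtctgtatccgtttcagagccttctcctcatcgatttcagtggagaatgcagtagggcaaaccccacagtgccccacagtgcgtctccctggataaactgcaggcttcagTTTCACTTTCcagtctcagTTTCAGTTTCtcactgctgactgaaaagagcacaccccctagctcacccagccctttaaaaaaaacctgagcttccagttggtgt
Isg15: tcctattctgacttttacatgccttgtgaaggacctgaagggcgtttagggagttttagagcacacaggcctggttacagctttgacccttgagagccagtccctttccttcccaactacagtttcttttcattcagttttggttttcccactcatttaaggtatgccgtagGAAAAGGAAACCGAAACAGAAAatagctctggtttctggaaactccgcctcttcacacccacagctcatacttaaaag
Ifit1 holds 2 matches and Isg15 holds 3 overlapping ones. Among the 355 genes with an age difference the share was 2.61%, near that of all tested genes.

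Among 14 chemokine genes, 9 rose at P21 and 5 at P60, and the median effect was 1.97 and 0.27. For this and the next lists, the shares over all tested genes were 11.5% rising at P21 and 12.8% rising at P60. A called age difference was found for 1.94% of them. Ccl9 alone had a called age difference, and 6 had an unadjusted p under 0.05, beside 12.8% of all tested genes. Ccl3 (4.37 and 4.51) rose at both ages. Chemokine values were low at P60, with list means of 4.08, 4.41 and 4.94 on the log2 scale in cHET mice. The authors' deposited tables give Ccl2, Ccl4, Ccl5, Ccl12 and Cxcl9 an effect at P21 and no value at P60. Whether low values made the P60 effects smaller was not tested. The 15 complement genes had no called age difference, with 14 raised at each age. Of 22 reactive astrocyte genes, all rose at P21 and 18 at P60, and Cd44, the hyaluronan receptor, differed (1.12 and 1.78; difference 0.66 ± 0.14, adjusted p = 0.0213, limma). The list had no called member without P60 cHET 1, P60 cKO 1 or P60 cKO 2. The lists of lysosome (20 genes), integrated stress response (23), endoplasmic reticulum chaperones (12) and necroptosis and pyroptosis (15) held no called difference. Their median differences were -0.03, 0.09, 0.19 and -0.47. Phlda3, a p53-induced inhibitor of Akt, was 1 of 11 p53 targets to differ (0.03 and 0.64; difference 0.62 ± 0.12, adjusted p = 0.0112, limma).

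**Figure D5:**
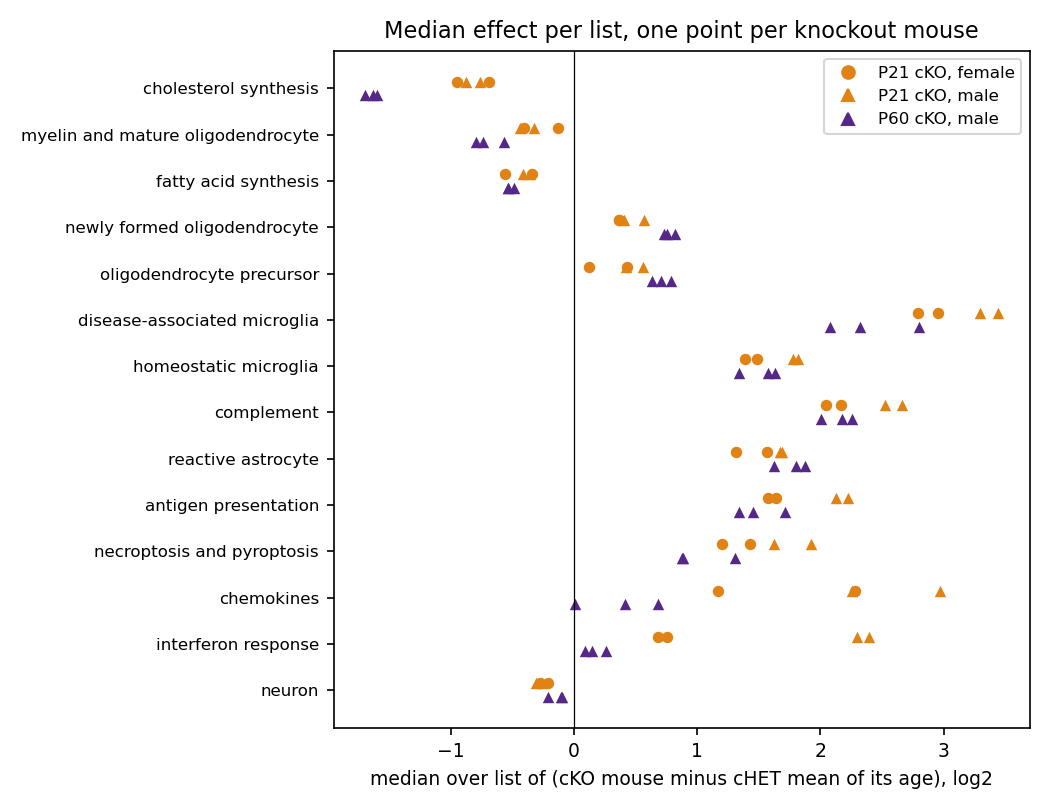
Median log2 effect over each of 14 gene lists (rows), with 1 point for each cKO mouse against the cHET mean of its age. P60 mice lie left of all P21 mice in the cholesterol synthesis, myelin, chemokine and interferon rows, and right of them in the newly formed oligodendrocyte and precursor rows.

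Neuronal genes had no called age difference. Of 17, 14 were lower in cKO mice at P21 and 5 at P60 (backgrounds 8.37% and 9.67%), with medians of -0.27 and -0.13. Snap25, a synaptic vesicle fusion protein, had -0.23 and 0.06 (difference 0.30 ± 0.11, adjusted p = 0.214, limma). All 5 tested motor neuron genes had age differences above 0, none called. Mitochondrial genome transcripts had a median age difference of 0.34, with none called of 13, beside 1.94% of all tested genes. Without P60 cHET 3, 4 were called in the higher direction, beside 345 of all 18245 genes tested in that fit. P60 cHET 3 had a mitochondrial share of 16.2%, against 11.6% and 11.4% in the other P60 cHET mice.

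Schwann cell genes gave 1 higher and 1 lower difference among 8, beside 0.919% and 1.02% of all tested genes. Cdh19, a cadherin also present in oligodendrocyte lineage cells, was at 328, 331 and 368 in P60 cHET and 996, 1113 and 1198 in P60 cKO mice. Its effects were 0.50 and 1.68 (difference 1.19 ± 0.18, adjusted p = 0.0018, limma). Ncmap, a myelin protein of peripheral nerve, was at 71.4, 99.7, 105 and 96.4 in P21 cHET and 415, 363, 396 and 602 in P21 cKO mice, and at 44.9, 43 and 57.5 and 110.5, 87.4 and 57.5 at P60. Its effect fell from 2.24 to 0.77 (difference -1.47 ± 0.31, adjusted p = 0.0236, limma), a call lost in 5 of 29 alternatives. The list mean was 5.62 to 6.12 in P60 cKO mice, below the 7.34 of P60 cHET 2. Neither Cdh19 nor Ncmap was out of line in P60 cHET 2. The list median of the age difference, -0.75, was 0.17 without that library.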

How the data were processed

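Spinal cord RNA of 21 mice was sequenced, and 14 libraries entered the fits described here. Per the submitters' processing notes, kallisto 0.43.0, sleuth 0.28.1 and the GRCm38 build were used, with roles and annotation release not given in the sources used here. The deposited signal per library is normalized scaled reads per base, scaled by the authors within each age, with no counts or depth. From the authors' deposited tables, natural log effects and q-values (adjusted p-values by the authors) per gene were used as the headers name them, after division by the natural log of 2, for genes without per-library values and for named genes whose per-library values differ from those tables. All 14 columns of the libraries used matched a sample, and 0 columns were unmapped.

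Gene names came from GENCODE M21 (24877 of 25127 identifiers). Values were taken to log2(value + 0.5), and genes with a value of 5 or more in at least 3 of the 14 libraries were tested. One limma-trend model (limma 3.58.1, R 4.3.3) with 4 group means and 10 residual degrees of freedom gave the effect at each age and their difference, with 2-sided tests and Benjamini-Hochberg adjustment over 18277 genes at 0.05. Every adjusted p is from limma, errors are SE of log2 differences, and each alternative changed 1 choice, except only male mice without P60 cHET 3, added after seeing the data. The fit was tested on simulated data with known age differences. It recovered 20.9% of those of 0.5 on the log2 scale, 58.2% of those of 1 and 72.7% of those of 2. There were 11 false calls, beside 14, 39 and 48 recovered genes in that order of size. Some called genes may therefore be false, and a gene that was not called may still differ between the ages. The simulation gave each gene the same base level at both ages, which the real values do not have.

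Members, gene lists and tests were chosen with earlier results of these data known. Named genes were Tardbp, Cnp, the 6 largest differences of each of 4 patterns (group mean of at least 20 in some group, values above 0 in at least 3 libraries of each age, knockout mice not overlapping) and the 3 smallest p of each list with at least 2 called members. Some genes are not reported here, including in figures. Every other gene in the text was named after its values were seen. The first kit does not mark strand and the second does, so genes overlapping others or having near-identical copies, such as the Ifit and H2 genes, are uncertain. The listed adjusted p-values measure the spread between these mice only. Promoter sequences are from RefSeq.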

Additional observations from a re-analysis of the deposited data

Results flagged for a closer look

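The knockout effect differed between the ages for 355 genes, as tested by the difference itself. Among the genes named, those whose larger effect was a rise at P60 were Ngfr (2.55 on the log2 scale), Col20a1 (2.92), Piezo2 (2.82), Slamf7 (2.80), Cyp26b1 (2.78), Selenov (2.98), Apoe (1.16), Apoc1 (2.12), Dgat2 (1.07), Gjc3 (0.55), Gpr17 (1.36), Rras2 (1.28), Neu4 (0.61), Lhfpl3 (0.70) and Cdh19 (1.19). Those whose larger effect was a fall at P60 were Pdlim1 (-2.38), Casq1 (-2.36), Anln (-2.26), Naa30 (-2.25), Myoc (-2.22), Slc9b2 (-2.08), Fdft1 (-1.31), Sqle (-1.0), Msmo1 (-1.18), Insig1 (-1.36), Stard4 (-1.31), Lipe (-0.49), Hapln2 (-1.85), Bcas1 (-0.75), Siglech (-1.49) and Tmem119 (-1.37), of which Casq1, Siglech and Naa30 had an effect above 0 at P21. The authors' deposited tables give Naa30 -0.36 (q = 0.221) at P60, as its values differ between the kinds of file. Those whose larger effect was a rise at P21 were Acp5 (-3.47), Dpp4 (-3.01), Ccl9 (-2.25), Dnah14 (-1.91), Arrdc2 (-1.64), Ankub1 (-1.54) and Ncmap (-1.47), and those whose larger effect was a fall at P21 were Col6a2 (1.29), Foxp2 (1.24), Apod (1.13), Nid1 (0.88), Mmp17 (0.79) and Gpd1 (0.76).

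Single mice stood far from the other 3 of their group in 6 of 100 groups of 4 examined by Dixon's ratio, where chance gives about 1 in 20. P21 cHET 2 was low in Casq1 (42 normalized reads per base), and P21 cHET 1 was low in Col20a1 (28.5). P21 cKO 2 was low in Lipe (762) and high in Neu4 (2533). P21 cKO 3 was low in Stard4 (326), and P21 cHET 4 was high in its mitochondrial share (7.53%). Of these 5 genes, Casq1 and Stard4 passed the test of the age difference under every alternative.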

How the results depend on the processing

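The count of 355 genes rose to 575 with array weights, to 669 with Cre-free controls in place of cHET mice (280 of the 355 were among them; at P60 these controls were all female and 74 days old, so sex and age changed too) and to 578 without P60 cHET 3 (325 of the 355), when 59.7% were higher in place of 47.3%. Leaving out single libraries gave 255 to 578, and the other alternatives 253 (only male mice, 192 of the 355) to 515. The share with the larger effect at P60 was 81.3% to 94.0%. Single-age counts ran from 2475 to 4751 at P21 and from 3258 to 4794 at P60. Their balance depended on the scaling. Under quantile normalization, 1900 were higher and 1873 lower at P21, and 2107 higher and 2226 lower at P60. No named gene reversed its direction, and of 45 with a called difference 28 were called in every alternative that tested them. The cholesterol count of 11 ran from 9 (of 17, using genes equal in both kinds of file) to 13, and the myelin counts from 7 to 12 lower and 3 to 5 higher.

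No paired analysis was possible because the labels give each mouse its own number and no number shared between groups. Depth is unknown, and precision was lowest for genes at low values, with 0.416% of the 4570 lowest genes by level and 3.81% of the 4569 highest called. Dropping a library left every group with at least 2 mice.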

Other observations

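The smallest p-values among genes whose larger effect was a rise at P60 belonged partly to genes outside the lists, picked here after their values were seen. Syt4, a vesicle protein, was at 5255, 4802, 5411 and 5647 in P21 cHET and 4158, 4101, 4523 and 4113 in P21 cKO mice, every knockout below. P60 cHET mice had 2429, 2549 and 2825 and P60 cKO mice 7156, 7152 and 7141, every knockout above, and its difference of 1.78 ± 0.09 (adjusted p = 1.1e-07, limma) had the smallest p of all 18277 genes. Erbb3, a neuregulin receptor of the glial lineage, had effects of 0.52 and 1.47 (adjusted p of the difference = 7.7e-05, limma). Mcam, a cell adhesion molecule, had 0.49 and 1.51 (adjusted p = 7.2e-06, limma). Foxd3, a transcription factor known from neural crest, had 0.23 and 2.37 (adjusted p = 0.00124, limma), and Sox4 0.62 and 1.66 (adjusted p = 0.00165, limma). Ngfr, Erbb3, Foxd3 and Cdh19 are also known from Schwann cells and their precursors. The Schwann cell list had a mean of 5.62 to 6.12 in P60 cKO and of 5.64, 7.34 and 5.17 in P60 cHET mice, on the log2 scale. Of its 8 age differences 5 were negative, with a median of -0.75. That median changed sign when P60 cHET 2 was left out, as given above. Whether Schwann cells had a part in these rises was not tested.

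Other genes named after their values were seen had larger falls at P60. Fgfr2, a fibroblast growth factor receptor, had -0.50 at P21 and -1.48 at P60 (adjusted p = 0.000207, limma). S1pr5, a sphingosine phosphate receptor of oligodendrocytes, had -1.0 and -2.0 (adjusted p = 0.000161, limma). Serpinb1a, a protease inhibitor, was at 320.1, 309.6 and 325 in P60 cHET and 18.7, 22.1 and 25.6 in P60 cKO mice, with effects of -1.76 and -3.83 (adjusted p = 0.000181, limma). For Lpar1 and Bmp2 the larger effect was instead a fall at P21. Lpar1, a lysophosphatidic acid receptor, had -0.51 and 0.18 (adjusted p = 0.00569, limma), and Bmp2 had -0.58 and 0.06 (adjusted p = 0.0294, limma).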
